A study of Mus musculus with 12 samples.

Results

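Gene expression in mouse brain 48 h after photodynamic therapy (PDT) was compared with that 1.5 h after the same treatment, which asks what differs between the second day and the first hours. The comparison used 6 of the 12 RNA-seq libraries of the series. It covered the 15907 of 54532 genes that had more than 0.5 FPKM in at least 3 of those 6 libraries (FPKM, fragments per kilobase of gene, scaled for depth). At both times mice had been injected with 5-aminolevulinic acid (5-ALA) at 20 mg/kg and lit 30 min later with a 635 nm laser at 20 J/cm2. The 48 h group held replicates 1, 3 and 4, and the 1.5 h group held replicates 1, 2 and 3. Control libraries, replicates 1, 2 and 4, carry PBS in their titles and untreated as their treatment, with no word on whether those mice were lit. The sample titles of the 1.5 h libraries write their time without a decimal point, and 1.5 h is the time in their treatment label. All mice were perfused with saline before the brain was taken. Every library is labelled both BALB/c and C57BL/6, and the labels give no brain region, time of day or statement that replicates were separate animals. The p-values therefore measure the spread between libraries, which may be technical.

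As background, cells convert 5-ALA into protoporphyrin IX, the last intermediate of heme synthesis, and light turns this pigment into a source of reactive oxygen. Proteins damaged by oxidation release heat shock factor, which switches on chaperone genes within minutes to hours, and calcium and kinase signals switch on immediate early genes on the same scale. Over the following days an injured brain develops reactive astrocytes rich in intermediate filaments, activated microglia that take up debris, and dividing glial and vessel cells.

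Stress response genes and their promoters come first, because heat shock genes gave the largest falls. Hspa1a and Hspa1b, both encoding the inducible chaperone HSP70, and Hspb1, encoding the small chaperone HSP27, are shown because the first pair fell and the last rose. Each line gives the 250 bases just before the gene's start, 5′ to 3′ on the gene's own strand, from RefSeq on GRCm38.p6. Capitals mark a heat shock element, searched as GAANNTTC, which reads the same on both strands. The stretches lie at chr17:34972157-34972406 (minus strand), chr17:34959239-34959488 (minus strand) and chr5:135887669-135887918 (plus strand).
Hspa1a: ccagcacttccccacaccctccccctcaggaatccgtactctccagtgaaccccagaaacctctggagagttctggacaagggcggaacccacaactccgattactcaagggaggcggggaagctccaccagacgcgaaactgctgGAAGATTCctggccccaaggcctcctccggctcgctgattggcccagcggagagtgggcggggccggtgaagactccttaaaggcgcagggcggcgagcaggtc
Hspa1b: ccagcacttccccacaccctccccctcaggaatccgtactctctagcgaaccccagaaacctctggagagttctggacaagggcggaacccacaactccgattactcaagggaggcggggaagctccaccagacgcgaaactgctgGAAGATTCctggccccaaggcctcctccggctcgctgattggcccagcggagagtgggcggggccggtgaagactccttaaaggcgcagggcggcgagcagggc
Hspb1: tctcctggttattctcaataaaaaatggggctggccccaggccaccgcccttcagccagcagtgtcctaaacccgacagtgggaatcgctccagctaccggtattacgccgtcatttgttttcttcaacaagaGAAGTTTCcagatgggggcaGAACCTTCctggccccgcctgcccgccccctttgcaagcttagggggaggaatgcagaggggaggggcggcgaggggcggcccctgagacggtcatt

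The Hspa1a and Hspa1b stretches differed at 3 of 250 bases and shared an element that begins 104 bases before the start. Their transcripts are near-identical, so reads may have been split between them and each value is uncertain on its own. Windows of 300 bases (250 before and 50 after the start) were matched for 10941 of the 15907 tested genes. The element stood in 9 of the 15 windows of the heat shock list (60.0%), against 610 of all 10941 windows (5.58%). Among list members it stood in 3 of 3 windows of those that rose (Bag3, Hspb1 and Hspb8) and in 4 of 7 of those that fell (Dnaja1, Hspa1a, Hspa1b and Hspe1). The element was thus present in members that moved in either direction, and a match is a description of the letters only.

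Library differences came before any group difference. Recovered reads per library were 16247614, 17294975 and 17444654 at 48 h, against 15709617, 16594959 and 15348579 at 1.5 h. The slope on log2 gene length of each library's log2 deviation from the 12-library mean was 0.0079, -0.0277 and 0.0052 at 48 h, against -0.157, 0.0396 and -0.0968 at 1.5 h. Among genes of a median 1233 bases, bin 2 of 10 by length, the median log2 difference from controls was 0.048, 0.243 and 0.117 at 48 h, against 0.782, 0.016 and 0.503 at 1.5 h. In the bin of the longest genes (median 11839 bases) it was -0.128, -0.247 and -0.152 at 48 h, against -0.599, 0.01 and -0.427 at 1.5 h. So 1.5 h replicates 1 and 3 stood high for short genes and low for long ones, and 48 h replicate 3 did so to a smaller extent. The same 1.5 h libraries had more mitochondrial transcripts, at 4.60, 6.14 and 5.18% of reads at 48 h, against 12.4, 4.16 and 9.14% at 1.5 h. All genes were also fitted with a length correction and with 1.5 h replicate 2 as the only 1.5 h library, and values from those fits are given below for the lists whose counts or medians they moved most.

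**Figure D1:**
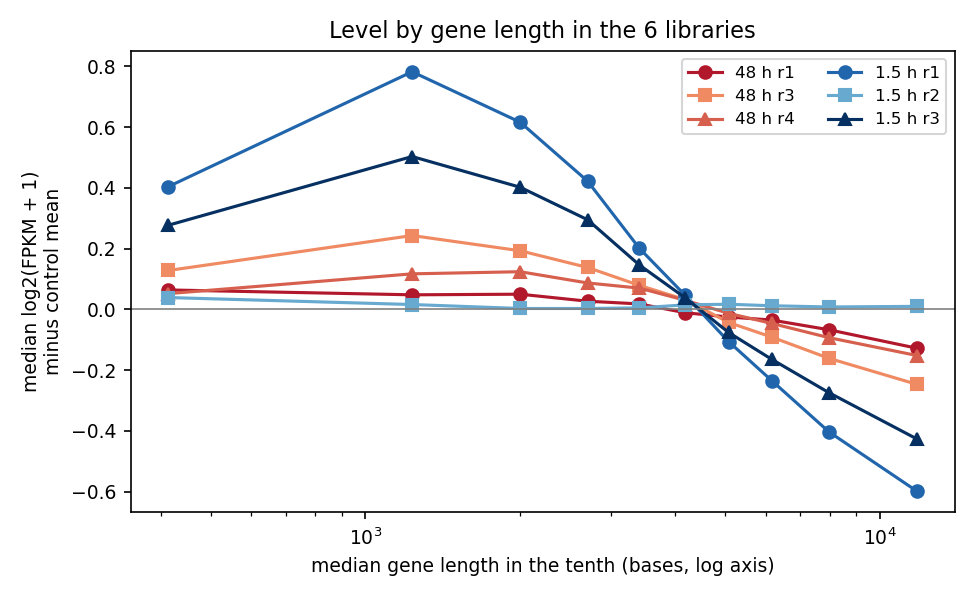
Median difference in log2(FPKM + 1) from the control mean, on the y axis, for 10 bins of the tested genes by length, on a log x axis in bases; each line is 1 of the 3 libraries at 48 h or the 3 at 1.5 h. Replicates 1 and 3 at 1.5 h reach 0.782 and 0.503 in bin 2 and -0.599 and -0.427 in the bin of the longest genes, whereas 1.5 h replicate 2 stays between 0.003 and 0.039 in every bin.

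Of the 15907 tested genes, 1605 rose (10.1%) and 1644 fell (10.3%) at 48 h against 1.5 h, by limma on log2(FPKM + 1) at a Benjamini-Hochberg adjusted p of 0.05. At least 2-fold on that scale, 480 rose and 412 fell. The 48 h libraries all lay above the 1.5 h libraries for 2299 of the 15907 genes and all below for 2354. Both counts exceed those of called genes, so a lack of overlap, given below for single genes, was more common than a call. The median log2 difference over all tested genes was -0.03. With a length correction in the fit, 1480 of the 1605 rises and 1436 of the 1644 falls were called again. With 1.5 h replicate 2 as the only 1.5 h library, 824 of the rises and 625 of the falls were called again, that lone library being assumed to vary like the other groups. The calls in either direction numbered 7847 without 1.5 h replicate 2, 1945 without 1.5 h replicate 3, 2065 without 48 h replicate 1 and 2067 without 48 h replicate 4. Falls also numbered 1059 without 1.5 h replicate 1. Scaled to each library's own read total in place of the authors' scaling, 2933 genes rose and 717 fell, and the median of all genes moved to 0.193. Across 20 alternative fits, 386 rises and 159 falls were called every time, where a gene dropped by a stricter filter was judged on the fits that held it.

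Control libraries placed the changes in time. For 1283 of the 1605 genes that rose (79.9%) the control mean lay nearer the 1.5 h mean. For 858 of the 1644 that fell (52.2%) it lay nearer the 48 h mean, and for 786 (47.8%) nearer the 1.5 h mean. These counts say which time lay nearer the controls, not that its level was that of controls. A list member that was low at 1 time could pass the filter through the other time alone, so list counts describe the members that passed and are read against the shares over all genes. In whole tissue, more cells of a type and more RNA per cell cannot be told apart, and this holds for every result below.

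**Figure D2:**
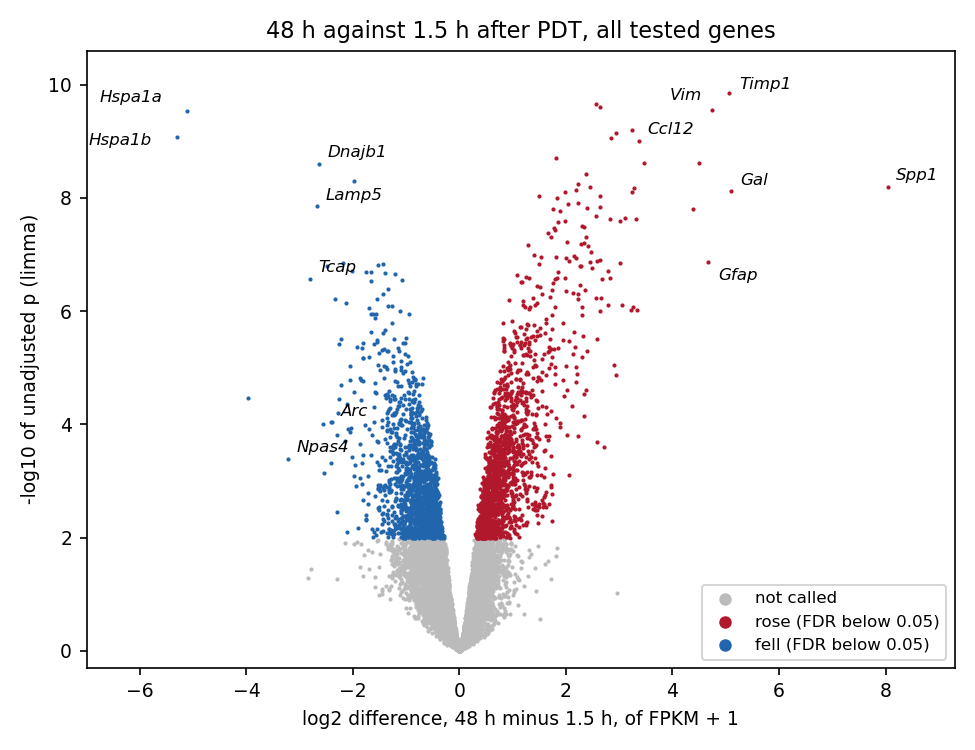
Each point is 1 of 15907 tested genes, with the log2 difference in FPKM + 1 (48 h minus 1.5 h) on the x axis and -log10 of the unadjusted limma p on the y axis; colours mark the 1605 genes that rose, the 1644 that fell and the rest. The rises reach 8.05 (Spp1) and the falls -5.31 (Hspa1b).

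The HSP70 genes Hspa1a and Hspa1b and their co-chaperone Dnajb1 were lower at 48 h in every library, and the HSP70 genes were then close to the control level. Hspa1b (chromosome 17, 34956436 to 34959238 on GRCm38) had 1.89, 4.75 and 3.99 FPKM at 48 h, against 151, 249 and 136 FPKM at 1.5 h, a log2 difference of -5.31 ± 0.28 (adjusted p = 1.54e-06), where the error is the SE of the limma fit. Hspa1a (chromosome 17, 34969190 to 34972156) had 1.89, 2.52 and 3.68 FPKM at 48 h, against 111, 172 and 99.4 FPKM at 1.5 h, a log2 difference of -5.11 ± 0.24 (adjusted p = 9.18e-07). Controls averaged 3.1 ± 0.755 FPKM of Hspa1b and 2.13 ± 0.722 FPKM of Hspa1a (SD, n = 3), so the 48 h libraries of both sat close to the control level and every 1.5 h library far above it. Dnajb1, the HSP40 co-chaperone that hands clients to HSP70, had 13.2, 13.7 and 12.4 FPKM at 48 h, against 88, 83.6 and 87.4 FPKM at 1.5 h, a log2 difference of -2.63 ± 0.15 (adjusted p = 2.8e-06), with 20.4 ± 4.4 FPKM in controls (SD, n = 3). Its 1.5 h libraries were close to each other, and its window held no heat shock element by the search above. All 3 falls were called in every alternative fit. At 12 h the means were 2187 FPKM for Hspa1b, 1434 FPKM for Hspa1a and 247.7 FPKM for Dnajb1. These lay above every 1.5 h library, so 1.5 h was not the highest of the sampled times.

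The full list of heat shock proteins and co-chaperones moved in both directions. Of 20 tested members 9 fell and 3 rose, against 10.3% and 10.1% of all genes, with a median log2 difference of -0.49 against -0.03 over all genes. The calls in either direction numbered 6 without 48 h replicate 4 and 7 without 1.5 h replicate 3, in place of 12. Between 1.5 h and 48 h the small heat shock proteins Hspb1 and Hspb8 went the other way from HSP70. Hspb1 had 53.4, 48 and 96.9 FPKM at 48 h, against 39, 25.9 and 29.2 FPKM at 1.5 h, a log2 difference of 1.0 ± 0.26 (adjusted p = 0.021), with 4.71 ± 0.851 FPKM in controls (SD, n = 3). It was thus far above control at both times and higher at 48 h, although the call was lost without 48 h replicate 4 and without 1.5 h replicate 3. The 12 h mean of Hspb1 was 123.1 FPKM, above every library at either time, so it too was higher at 12 h than at 48 h. Hspb8, a small chaperone that works with Bag3 in clearing damaged proteins, had 14.1, 8.29 and 10.5 FPKM at 48 h, against 2.66, 1.98 and 3.19 FPKM at 1.5 h, a log2 difference of 1.71 ± 0.22 (adjusted p = 0.000533). Its 1.5 h level was near the control mean of 2.35 ± 0.9 FPKM (SD, n = 3), and its 12 h mean was 8.33 FPKM.

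Immediate early genes are transcription factors and effectors that neurons switch on within minutes of stimulation. Of 30 tested members 10 fell at 48 h, 2 rose and 18 did not pass the test, with a median log2 difference of -0.92. For 9 of the 10 falls the control mean lay nearer the 48 h mean. No member kept its call in every alternative fit, and without 1.5 h replicate 3 the calls in either direction numbered 7 in place of 12. Npas4, an activity-dependent factor of neurons, had 17.8, 11.2 and 60.5 FPKM at 48 h, against 102, 205 and 539 FPKM at 1.5 h, a log2 difference of -3.22 ± 0.65 (adjusted p = 0.00618). Arc, whose protein acts at synapses, had 72.3, 83.4 and 193 FPKM at 48 h, against 563, 432 and 704 FPKM at 1.5 h, a log2 difference of -2.39 ± 0.40 (adjusted p = 0.00252). Egr4, a zinc finger factor, had 19.8, 32.5 and 53 FPKM at 48 h, against 133, 116 and 287 FPKM at 1.5 h, a log2 difference of -2.30 ± 0.41 (adjusted p = 0.00343). In all 3 genes the 48 h libraries lay below the 1.5 h libraries, which the rule that named Npas4 and Arc required. In each of the 3, 48 h replicate 4 and 1.5 h replicate 3 were the highest of their groups. Their 12 h means were above their 1.5 h means, at 980.8 FPKM (Npas4), 1403 FPKM (Arc) and 366.6 FPKM (Egr4). Npas4 lost its call when the fit held only the 2 groups compared, and Arc and Egr4 lost theirs without both 1.5 h replicates 1 and 3 and 48 h replicate 3.

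Fos, the founding member of the class, had 46.5, 34.5 and 100.5 FPKM at 48 h, against 46.7, 139 and 401 FPKM at 1.5 h, a log2 difference of -1.32 ± 0.69 (adjusted p = 0.192), and did not pass the test, and its groups overlapped. Atf3, a stress factor, had 12.6, 3.63 and 5.59 FPKM at 48 h, against 17, 6.59 and 10.1 FPKM at 1.5 h, with -0.62 ± 0.37 (adjusted p = 0.246), again with overlap. Its control mean of 0.203 ± 0.0807 FPKM (SD, n = 3) lay below every treated library at both times. Jun, a partner of Fos in AP-1, fell: it had 36.5, 33 and 37.6 FPKM at 48 h, against 46.7, 59.5 and 65.7 FPKM at 1.5 h, a log2 difference of -0.66 ± 0.16 (adjusted p = 0.015), a call lost without 48 h replicate 3, without 1.5 h replicate 3 and under both other scalings. The 2 members that rose were Nptx2 and Fosl1. Nptx2, a secreted pentraxin that gathers AMPA receptors at synapses, had 106, 198 and 199 FPKM at 48 h, against 70.3, 66.6 and 79.5 FPKM at 1.5 h, a log2 difference of 1.15 ± 0.23 (adjusted p = 0.00579), with 16.3 ± 2.27 FPKM in controls (SD, n = 3). Fosl1, another partner of Jun, had 10.7, 7.71 and 9.36 FPKM at 48 h, against 3.62, 5.27 and 4.44 FPKM at 1.5 h, a log2 difference of 0.91 ± 0.19 (adjusted p = 0.00667). The 12 h means of Nptx2 and Fosl1 were 336.1 and 17.73 FPKM, above all of their 48 h libraries. Nptx2 lost its call with only the 2 groups in the fit, and Fosl1 with 1.5 h replicate 2 as the only 1.5 h library.

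AP-1 and CRE sites were also searched in the promoter windows, as TGANTCA and TGACGTCA, each the same on both strands. AP-1 stood in 100 of the 1187 windows of genes that rose (8.42%), in 36 of the 1206 windows of genes that fell (2.99%) and in 4.59% of all 10941 windows. A CRE stood in 2 of the 23 windows of the immediate early list (8.70%), in 0 of the 8 windows of its members that fell and in 3.21% of all windows. These shares are descriptions with no test.

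Other stress regulators were measured by list. Of 16 tested glucocorticoid targets 5 fell and 1 rose, with a median log2 difference of -0.38. Sult1a1, a sulfotransferase, had 1.77, 1.78 and 1.13 FPKM at 48 h, against 9.51, 5.61 and 6.59 FPKM at 1.5 h, a log2 difference of -1.67 ± 0.19 (adjusted p = 0.000228). Tsc22d3, encoding the glucocorticoid-induced leucine zipper, had 10.3, 10.4 and 10.3 FPKM at 48 h, against 25, 18.5 and 33.1 FPKM at 1.5 h, a log2 difference of -1.19 ± 0.21 (adjusted p = 0.00329). In both genes every 48 h library lay below every 1.5 h library. The member that rose was Lcn2, the iron-binding lipocalin that astrocytes also release, with 15, 4.25 and 7.61 FPKM at 48 h, against 0.188, 0.0233 and 0.0272 FPKM at 1.5 h, a log2 difference of 3.06 ± 0.31 (adjusted p = 0.000102). Of 18 tested p53 targets 2 fell and 0 rose, and Cdkn1a, which encodes the cell cycle inhibitor p21, had 17.7, 40.4 and 33.8 FPKM at 48 h, against 16.9, 15.1 and 19.9 FPKM at 1.5 h, a log2 difference of 0.72 ± 0.35 (adjusted p = 0.165), and did not pass the test. Its control mean was 4.9 ± 3.2 FPKM (SD, n = 3), below all 6 libraries. Of 19 tested ER stress and ATF4 targets 2 rose and 1 fell, and 4 rose with the length correction or with 1.5 h replicate 2 as the only 1.5 h library. Nupr1, a stress-induced chromatin protein, had 7.11, 8.84 and 10.1 FPKM at 48 h, against 1.51, 0.706 and 0.739 FPKM at 1.5 h, a log2 difference of 2.30 ± 0.17 (adjusted p = 1.17e-05).

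Circadian genes were also measured, and the labels give no time of day. Of 19 tested clock and output genes 9 fell and 1 rose, with a median log2 difference of -0.57. Arntl, which encodes the clock activator BMAL1, had 2.76, 2.42 and 2.53 FPKM at 48 h, against 6.29, 7.75 and 5.94 FPKM at 1.5 h, a log2 difference of -1.09 ± 0.14 (adjusted p = 0.000563), a fall called in every alternative fit. Cry2, a repressor of the clock, had 12.5, 13.5 and 13 FPKM at 48 h, against 20.5, 30.6 and 22.3 FPKM at 1.5 h, a log2 difference of -0.84 ± 0.15 (adjusted p = 0.00333), a call lost under scaling to own read totals. In both genes the groups did not overlap. Dbp, a clock output factor, had 12.1, 8.45 and 9.997 FPKM at 48 h, against 26.4, 13.9 and 25.2 FPKM at 1.5 h, a log2 difference of -0.99 ± 0.30 (adjusted p = 0.0379), a call kept in 7 of 20 alternatives and lost without any single library other than 1.5 h replicate 2. Bhlhe41, a clock repressor, rose to 5.74, 7.61 and 6.11 FPKM at 48 h, against 3.58, 2.99 and 4.23 FPKM at 1.5 h, a log2 difference of 0.70 ± 0.15 (adjusted p = 0.00813). For none of the 9 falls did the control mean lie nearer the 48 h mean.

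Reactive astrocyte genes had the highest median of the 55 lists. All 22 members that passed the filter, of 25 listed, rose, against 10.1% of all genes, with a median log2 difference of 2.44 against -0.03 over all genes, and 16 kept their call in every alternative fit. With 1.5 h replicate 2 as the only 1.5 h library, 20 rose. Gfap (chromosome 11, 102887336 to 102900912), the filament protein that marks astrocytes, had 632, 437 and 534 FPKM at 48 h, against 28.9, 8.86 and 29.4 FPKM at 1.5 h, a log2 difference of 4.67 ± 0.40 (adjusted p = 3.26e-05). Vim (chromosome 2, 13573927 to 13582826), the filament vimentin, had 183, 104 and 144 FPKM at 48 h, against 5.64, 3.36 and 4.07 FPKM at 1.5 h, a log2 difference of 4.74 ± 0.23 (adjusted p = 9.18e-07). Timp1 (chromosome X, 20870166 to 20874735), an inhibitor of matrix metalloproteases, had 64.5, 42.9 and 55.3 FPKM at 48 h, against 0.556, 0.896 and 0.483 FPKM at 1.5 h, a log2 difference of 5.06 ± 0.23 (adjusted p = 9.18e-07). The lowest 48 h library lay more than 10 times above the highest 1.5 h library in each of the 3 genes. Cd44, a member of the same list and a receptor for hyaluronan and osteopontin, had 13.5, 7.98 and 12.3 FPKM at 48 h, against 0.206, 0.136 and 0.506 FPKM at 1.5 h, a log2 difference of 3.24 ± 0.21 (adjusted p = 5.31e-06).

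Genes of resting astrocytes were mixed. Of 20 tested members of that list 4 rose and 8 fell, with a median log2 difference of -0.31 that became 0.01 under quantile normalization. Aqp4, the water channel of astrocyte end-feet, had 43.6, 23.9 and 35 FPKM at 48 h, against 5.49, 7.58 and 7.54 FPKM at 1.5 h, a log2 difference of 2.13 ± 0.21 (adjusted p = 7.3e-05). Sox9, a transcription factor of astrocytes, had 10.8, 6.72 and 9.72 FPKM at 48 h, against 2.57, 3.52 and 4.51 FPKM at 1.5 h, a log2 difference of 1.15 ± 0.19 (adjusted p = 0.00236). Both rises were called in every alternative fit. Among the falls, Aldoc, the brain form of aldolase, had 117, 111 and 106 FPKM at 48 h, against 331, 205 and 263 FPKM at 1.5 h, a log2 difference of -1.23 ± 0.18 (adjusted p = 0.00123). Fjx1, the mouse relative of the fly four-jointed gene, had 14.6, 16.4 and 16.7 FPKM at 48 h, against 27.9, 27.4 and 30.8 FPKM at 1.5 h, a log2 difference of -0.81 ± 0.12 (adjusted p = 0.000903). Every 48 h library of both genes lay below every 1.5 h library, and Aldoc lost its call only when the fit held just the 2 groups compared.

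**Figure D3:**
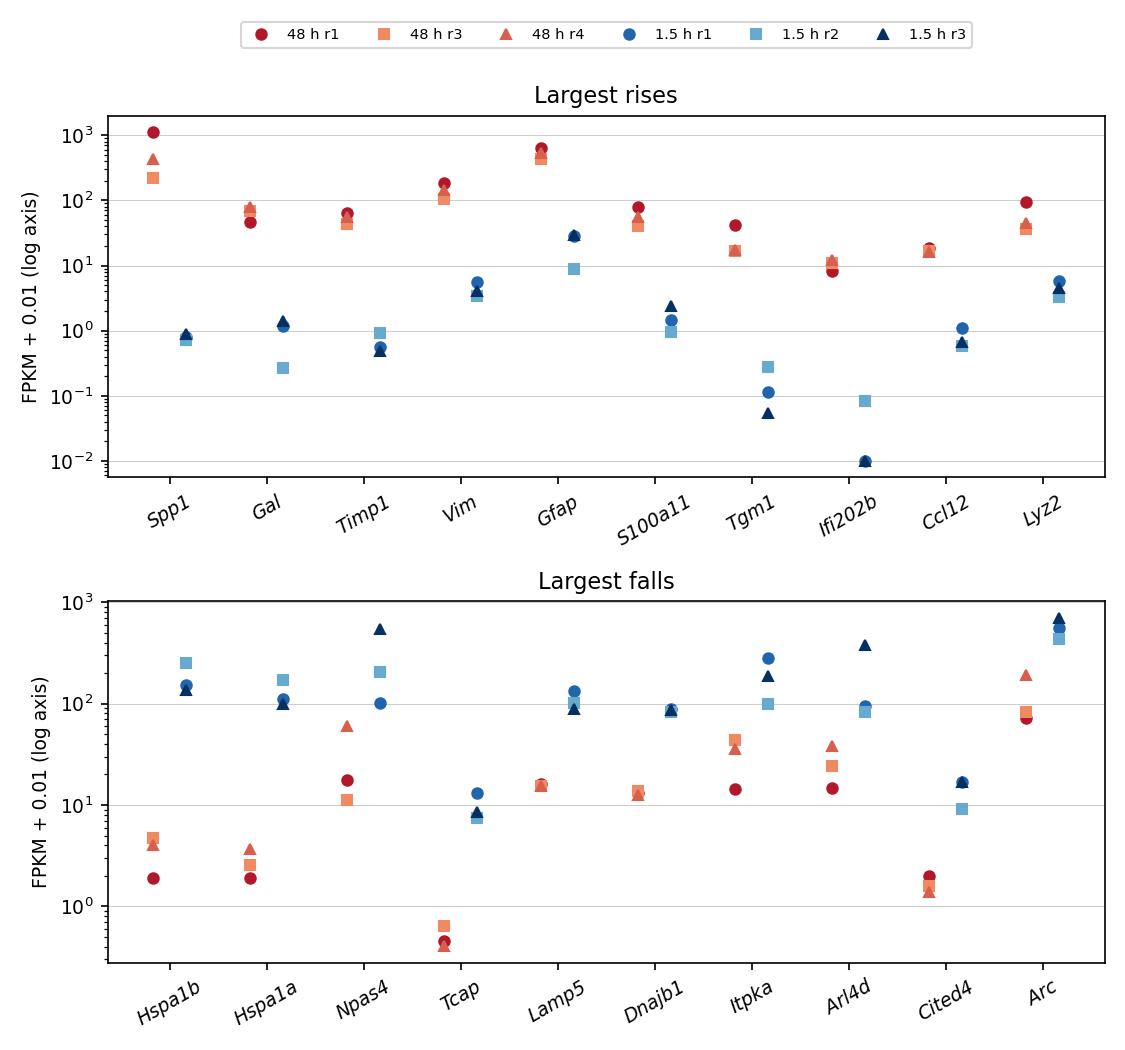
FPKM + 0.01 on a log y axis for the 10 largest rises (upper panel) and the 10 largest falls (lower panel) among genes of at least 500 bases, with 1 point per library, 48 h left of 1.5 h. No gene shown has overlapping groups, which the naming rule requires, and Npas4 and Arl4d have the widest spread at 1.5 h among the falls.

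The gene with the largest rise was Spp1 (chromosome 5, 104435118 to 104441050), which encodes osteopontin, a secreted ligand made by activated microglia and macrophages. It had 1109, 220.1 and 431 FPKM at 48 h, against 0.799, 0.706 and 0.867 FPKM at 1.5 h, a log2 difference of 8.05 ± 0.51 (adjusted p = 5.22e-06). The 48 h libraries spread widely, with replicate 1 the highest, yet all of them lay far above every 1.5 h library. Of 22 tested genes of disease-associated microglia, the state that microglia adopt around damaged tissue, 15 rose and 1 fell, with a median log2 difference of 1.11. Cst7, a cystatin that inhibits lysosomal proteases, had 2.71, 5.32 and 4.59 FPKM at 48 h, against 0 in every library at 1.5 h (adjusted p = 1.96e-05), and no fold is given against a group listed at 0. The member that fell was Apoe, the lipid carrier, with 425, 353 and 373 FPKM at 48 h, against 1230, 507 and 872 FPKM at 1.5 h, a log2 difference of -1.09 ± 0.28 (adjusted p = 0.0206). This call was kept in 10 of 20 alternatives and lost without 1.5 h replicate 3, 48 h replicate 3 or 48 h replicate 4.

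Phagocyte genes rose in all 21 members that passed the filter, of 24 listed, against 10.1% of all genes. Their median log2 difference was 1.75, and 12 kept the call in every alternative fit. For all 21 the control mean lay nearer the 1.5 h mean. Ms4a6c, a membrane protein of phagocytes with close relatives in the genome, had 3.31, 2.98 and 2.47 FPKM at 48 h, against 0.321, 0.0299 and 0.105 FPKM at 1.5 h, a log2 difference of 1.77 ± 0.13 (adjusted p = 1.2e-05). Lyz2, the lysozyme of macrophages and activated microglia, had 95.2, 35.9 and 44.6 FPKM at 48 h, against 5.75, 3.26 and 4.56 FPKM at 1.5 h, a log2 difference of 3.33 ± 0.34 (adjusted p = 0.000113). In Lyz2, 48 h replicate 1 stood above the other 48 h libraries, as it did for Spp1. Lysosomal genes rose in 13 of 23 tested members with 0 falls. Ctsc, which encodes the protease cathepsin C, had 8.78, 6.06 and 5.8 FPKM at 48 h, against 0.95, 0.844 and 1.08 FPKM at 1.5 h, a log2 difference of 1.99 ± 0.14 (adjusted p = 9.96e-06). Grn, the lysosomal protein progranulin, had 46.6, 30.2 and 37.6 FPKM at 48 h, against 15.9, 11.4 and 13.2 FPKM at 1.5 h, a log2 difference of 1.43 ± 0.17 (adjusted p = 0.00028).

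Genes of resting microglia did not move together. Of 19 tested members 9 rose and 3 fell, and the calls in either direction numbered 7 without 48 h replicate 1 in place of 12. Cx3cr1, the fractalkine receptor, had 16.7, 11.4 and 11.2 FPKM at 48 h, against 5.04, 6.04 and 4.3 FPKM at 1.5 h, a log2 difference of 1.19 ± 0.17 (adjusted p = 0.00088). Olfml3, a secreted protein of microglia, had 9.3, 10.8 and 9.87 FPKM at 48 h, against 2.71, 1.85 and 2.2 FPKM at 1.5 h, a log2 difference of 1.76 ± 0.12 (adjusted p = 7.37e-06). Crybb1, a crystallin gene used as a microglial marker, fell to 1.3, 2.22 and 1.84 FPKM at 48 h, against 19.1, 7.34 and 12.8 FPKM at 1.5 h, a log2 difference of -2.26 ± 0.27 (adjusted p = 0.000302). Its control mean was 2.98 ± 0.81 FPKM (SD, n = 3). Every 1.5 h library lay above the control libraries (2.52, 3.91 and 2.5 FPKM), and every 48 h library lay below them by less. P2ry12, the ADP receptor that guides microglial processes, had 6.08, 10.02 and 7.47 FPKM at 48 h, against 15.1, 7.91 and 10.1 FPKM at 1.5 h, and its log2 difference of -0.43 ± 0.22 (adjusted p = 0.181) did not pass the test. Aif1, which encodes the microglial protein IBA1, had 5.71, 12.7 and 9.97 FPKM at 48 h, against 10.9, 3.24 and 5.97 FPKM at 1.5 h, with overlapping groups and a log2 difference of 0.51 ± 0.36 (adjusted p = 0.327).

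Markers of blood cells bear on these lists. The summed FPKM of 15 monocyte and macrophage genes was 140.3, 47.1 and 60.5 at 48 h, against 14.7, 8.96 and 8.46 at 1.5 h, and 10 of the 15 were below the filter. Of the 5 tested, 4 rose and 0 fell, against 10.1% and 10.3% of all genes. Lyz2 and Arg1 were called in every alternative fit. Arg1 had 1.68, 0.736 and 0.86 FPKM at 48 h, against 0.037, 0.0275 and 0.128 FPKM at 1.5 h. Which cells the rises came from was not tested. Most of the 48 h sum was Lyz2, which activated microglia also express. It held 95.2, 35.9 and 44.6 FPKM at 48 h, against 5.75, 3.26 and 4.56 FPKM at 1.5 h. Ccr2, which marks monocytes from blood, had at most 0.197 FPKM in the 6 libraries. Of 12 neutrophil genes 9 were below the filter, and Ly6g was at 0 in 5 of 6 libraries. The 3 tested gave 0 rises and 0 falls. The summed FPKM of the 12 was 5.82, 4.02 and 3.05 at 48 h, against 21.1, 4.87 and 1.73 at 1.5 h. It was thus highest in 1.5 h replicate 1. Of 16 T, B and NK cell genes 15 were below the filter, and Gzmb was at 0 in all 6. Haemoglobin was high in 1 library, also 1.5 h replicate 1. Hbb-bs had 5.49, 1.85 and 0.832 FPKM at 48 h, against 212, 7.26 and 6.05 FPKM at 1.5 h, with a log2 difference of -2.84 ± 1.31 (adjusted p = 0.143).

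Complement, the cascade that tags debris and synapses for removal, rose in 9 of 11 tested members with 0 falls and a median log2 difference of 1.40. C4b, a component of the classical pathway, had 26.8, 14.3 and 18.2 FPKM at 48 h, against 1.37, 0.753 and 1.18 FPKM at 1.5 h, a log2 difference of 3.27 ± 0.21 (adjusted p = 5.22e-06). C3ar1, the receptor for the C3a fragment, had 9.3, 5.01 and 6.62 FPKM at 48 h, against 0.363, 0.569 and 0.946 FPKM at 1.5 h, a log2 difference of 2.27 ± 0.20 (adjusted p = 3.47e-05). Both were called in every alternative fit, and neither group reached into the other. Interferon-stimulated genes rose in 20 of 22 tested members with 0 falls, with a median log2 difference of 1.26. For 19 of the 20 the control mean lay nearer the 1.5 h mean, and 10 were called in every alternative. Ifitm3, which blocks the entry of viruses, had 73.2, 57 and 74.7 FPKM at 48 h, against 15.3, 5.6 and 8.22 FPKM at 1.5 h, a log2 difference of 2.79 ± 0.28 (adjusted p = 0.000103). Irf9, the DNA-binding part of the interferon-activated factor, had 4.79, 5.13 and 5.89 FPKM at 48 h, against 1.96, 1.71 and 1.59 FPKM at 1.5 h, a log2 difference of 1.19 ± 0.12 (adjusted p = 0.000103). Ifi202b, a member of a multigene family whose counts are uncertain, had 8.12, 11 and 12.3 FPKM at 48 h, against 0, 0.0722 and 0 FPKM at 1.5 h, a log2 difference of 3.47 ± 0.20 (adjusted p = 2.8e-06).

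MHC and antigen presentation genes rose in 8 of 13 tested members with 0 falls. H2-K1, a class I heavy chain, had 3.97, 3.96 and 5.39 FPKM at 48 h, against 1.36, 0.939 and 1.51 FPKM at 1.5 h, a log2 difference of 1.26 ± 0.14 (adjusted p = 0.000177). H2-Ab1, a class II chain, had 1.37, 3.04 and 2.28 FPKM at 48 h, against 0.503, 0.0374 and 0.306 FPKM at 1.5 h, a log2 difference of 1.31 ± 0.19 (adjusted p = 0.00116). Both belong to a family of close relatives, so their counts are uncertain, and the class II level stayed low. NF-kB subunits and cytokines rose in 10 of 19 tested members and fell in 1. Without 1.5 h replicates 1 and 3 the rises numbered 6, and the calls in either direction numbered 5 without 1.5 h replicate 3. Socs3, the feedback inhibitor of STAT3 signalling, had 21.2, 13.4 and 10.7 FPKM at 48 h, against 1.14, 1.55 and 2.37 FPKM at 1.5 h, a log2 difference of 2.56 ± 0.25 (adjusted p = 8.44e-05). The 12 h mean of Socs3 was 28.31 FPKM, above all of its 48 h libraries. Bcl3, a nuclear partner of NF-kB, had 7.46, 3.6 and 2.82 FPKM at 48 h, against 0.0998, 0.0495 and 0.0866 FPKM at 1.5 h, a log2 difference of 2.30 ± 0.23 (adjusted p = 0.000105). Il1b, the cytokine of the early inflammasome response, was the member that fell, at 0.448, 0.716 and 0.838 FPKM at 48 h, against 2.5, 0.931 and 5.17 FPKM at 1.5 h, a log2 difference of -1.06 ± 0.33 (adjusted p = 0.0426), a call lost without any single library other than 1.5 h replicate 2.

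Chemokines and their receptors rose in 10 of 16 tested members and fell in 2. Ccl12, a mouse ligand of CCR2, had 18.8, 16.8 and 16.3 FPKM at 48 h, against 1.07, 0.57 and 0.665 FPKM at 1.5 h, a log2 difference of 3.38 ± 0.18 (adjusted p = 1.54e-06). Cxcl16, a membrane-bound chemokine, had 3.73, 4.65 and 4.3 FPKM at 48 h, against 0.0545, 0.243 and 0.686 FPKM at 1.5 h, a log2 difference of 2.0 ± 0.17 (adjusted p = 3.03e-05). The members that fell were Cx3cl1 and Cxcl14. Cx3cl1, the neuronal chemokine fractalkine, had 108, 126 and 141 FPKM at 48 h, against 269, 268 and 224 FPKM at 1.5 h, a log2 difference of -1.02 ± 0.15 (adjusted p = 0.00133), a call lost under quantile normalization. Cxcl14 had 29.7, 27.7 and 24.7 FPKM at 48 h, against 61.4, 44.8 and 54.1 FPKM at 1.5 h, a log2 difference of -0.93 ± 0.13 (adjusted p = 0.000942), a fall called in every alternative fit.

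**Figure D4:**
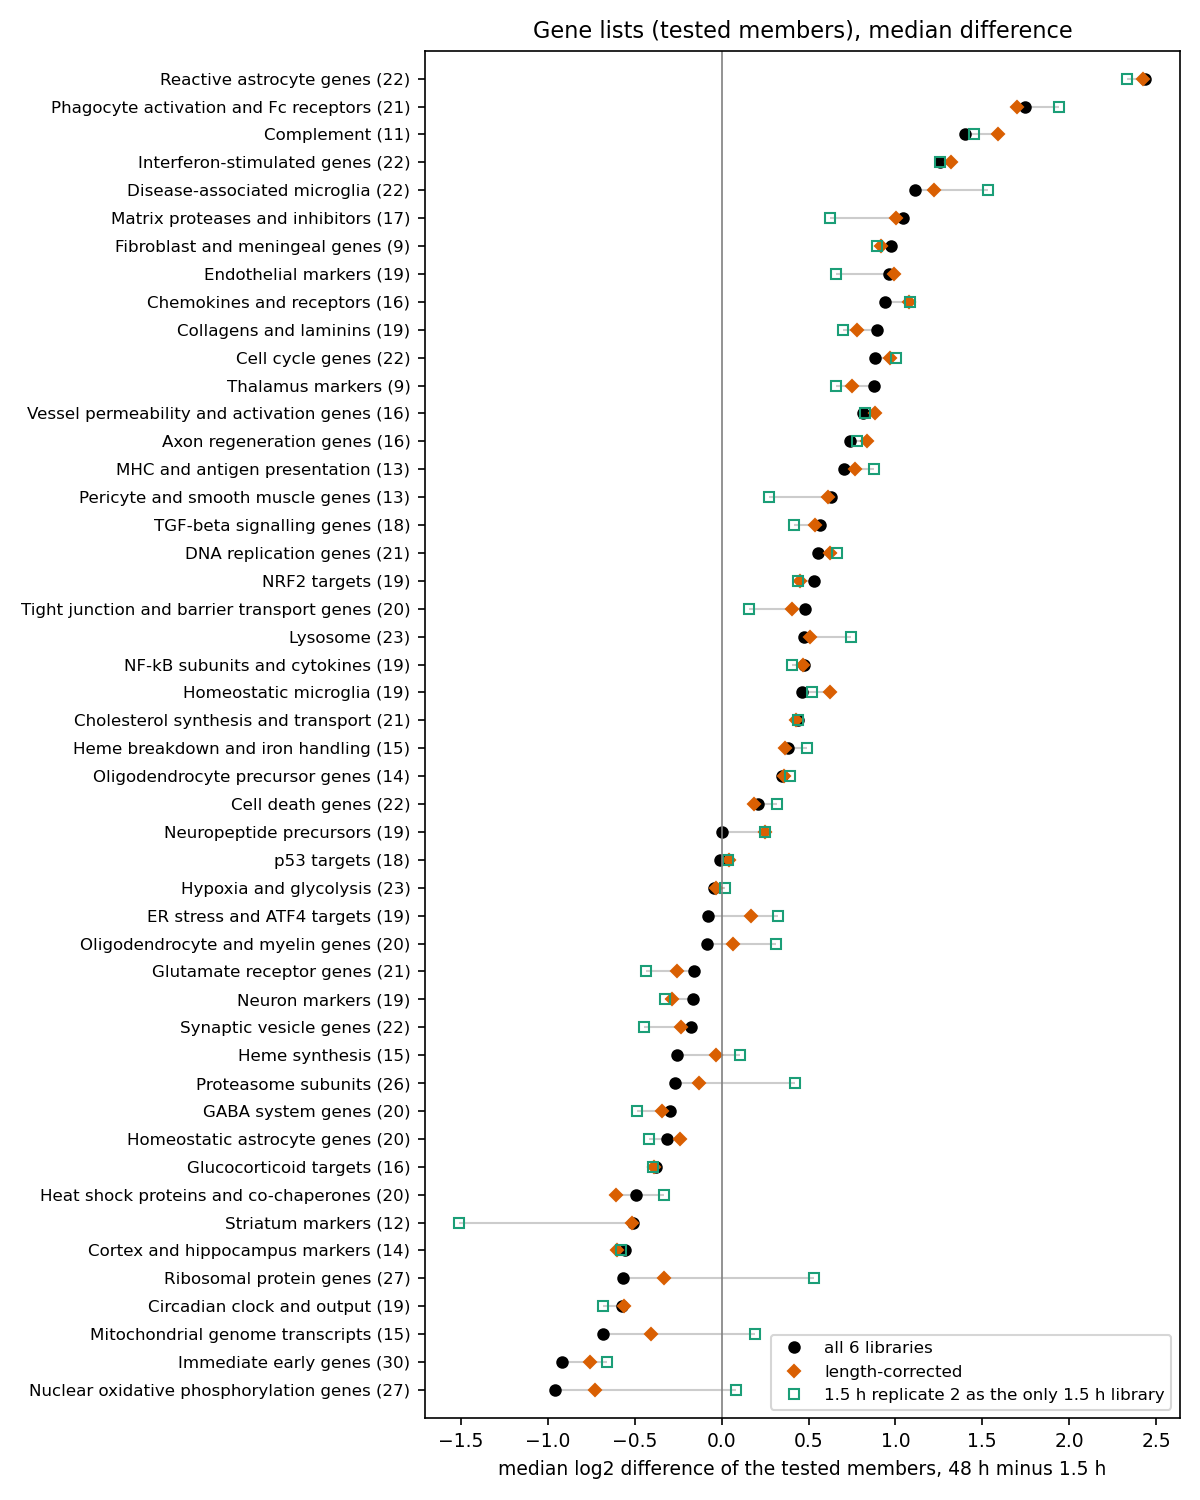
Median log2 difference (48 h minus 1.5 h) of the tested members of each gene list on the x axis, with the number tested in brackets; black points use all 6 libraries, orange diamonds the length-corrected fit, and open squares 1.5 h replicate 2 as the only 1.5 h library. Reactive astrocyte genes stand at 2.44 with all libraries and 2.33 with 1.5 h replicate 2 only, whereas ribosomal protein genes stand at -0.57 and 0.53.

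Genes of dividing cells rose. Of 22 tested cell cycle genes 21 rose and 0 fell, with a median log2 difference of 0.88, and 9 kept the call in every alternative fit. Ccnd1, the G1 cyclin D1, had 21.4, 19.3 and 12.9 FPKM at 48 h, against 4.46, 2.82 and 3.95 FPKM at 1.5 h, a log2 difference of 1.98 ± 0.18 (adjusted p = 4.71e-05). Cdk1, the kinase of mitosis, had 2.34, 1.78 and 1.27 FPKM at 48 h, against 0.117, 0.0372 and 0.246 FPKM at 1.5 h, a log2 difference of 1.29 ± 0.14 (adjusted p = 0.000185). Mki67, the proliferation marker Ki-67, had 3.34, 1.67 and 1.43 FPKM at 48 h, against 0.213, 0.0913 and 0.135 FPKM at 1.5 h, a log2 difference of 1.41 ± 0.18 (adjusted p = 0.000543). The levels of Cdk1 and Mki67 stayed low, but every 48 h library exceeded every 1.5 h library. DNA replication genes rose in 14 of 21 tested members with 0 falls, or 9 without 48 h replicate 1. Mcm3, a subunit of the replicative helicase, had 5.82, 3.2 and 2.94 FPKM at 48 h, against 1.03, 0.392 and 0.838 FPKM at 1.5 h, a log2 difference of 1.48 ± 0.20 (adjusted p = 0.000753).

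The number of endothelial genes called depended on the 1.5 h libraries. Of 19 tested endothelial markers 10 rose and 0 fell, with a median log2 difference of 0.96. With 1.5 h replicate 2 as the only 1.5 h library the rises numbered 4, without 1.5 h replicate 3 they numbered 6, and without 1.5 h replicate 2 they numbered 16. The summed FPKM of the list was 233, 143 and 135 at 48 h, against 65.1, 69.9 and 55.1 at 1.5 h. Sox18, an endothelial transcription factor, had 7.97, 7.22 and 5.42 FPKM at 48 h, against 0.864, 1.36 and 1.37 FPKM at 1.5 h, a log2 difference of 1.83 ± 0.17 (adjusted p = 4.71e-05). Cldn5, the claudin that seals brain capillaries, had 45.3, 38.6 and 34.1 FPKM at 48 h, against 12.4, 16.6 and 12.3 FPKM at 1.5 h, a log2 difference of 1.45 ± 0.15 (adjusted p = 9.75e-05), with 14.3 ± 0.997 FPKM in controls (SD, n = 3). Both were called in every alternative fit. Of 20 tested tight junction and barrier transport genes 6 rose and 0 fell, and the calls in either direction numbered 13 without 1.5 h replicate 2. With 1.5 h replicate 2 as the only 1.5 h library 4 rose and 1 fell. Slc16a1, a lactate transporter among them, had 12.8, 12.6 and 14.3 FPKM at 48 h, against 6.79, 6.03 and 7.27 FPKM at 1.5 h, a log2 difference of 0.89 ± 0.13 (adjusted p = 0.000901).

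Of 16 tested genes of vessel permeability and activation 11 rose and 1 fell, and 7 rose with 1.5 h replicate 2 as the only 1.5 h library. Cav1, the coat protein of caveolae, had 16.6, 9.61 and 13.5 FPKM at 48 h, against 2.61, 1.81 and 2.72 FPKM at 1.5 h, a log2 difference of 2.05 ± 0.17 (adjusted p = 3.26e-05). Cav2, its partner, had 11.3, 13.6 and 15 FPKM at 48 h, against 3.6, 4.39 and 5.17 FPKM at 1.5 h, a log2 difference of 1.41 ± 0.14 (adjusted p = 0.000103). Plvap, a protein of leaky vessels, was the member that fell, with 5.48, 5.94 and 6.62 FPKM at 48 h, against 15.7, 7.0 and 13.1 FPKM at 1.5 h, a log2 difference of -0.82 ± 0.22 (adjusted p = 0.0237). Its 1.5 h replicate 2 lay close to the 48 h libraries, and the call was lost without any single library other than 48 h replicate 4 and 1.5 h replicate 2. Pericyte and smooth muscle genes rose in 6 of 13 tested members, in 3 without 48 h replicate 1, 1.5 h replicate 1 or 1.5 h replicate 3, and in 2 with 1.5 h replicate 2 as the only 1.5 h library. Des, the muscle filament desmin, had 1.69, 1.21 and 1.36 FPKM at 48 h, against 0.263, 0.555 and 0.362 FPKM at 1.5 h, a log2 difference of 0.80 ± 0.13 (adjusted p = 0.00181).

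Matrix genes were described by several lists. Of 19 tested collagens and laminins 12 rose and 0 fell, or 4 with 1.5 h replicate 2 as the only 1.5 h library and 7 without 1.5 h replicate 3. Tnc, the injury-induced glycoprotein tenascin C, had 14.3, 8.97 and 7.2 FPKM at 48 h, against 0.35, 0.299 and 0.349 FPKM at 1.5 h, a log2 difference of 3.01 ± 0.22 (adjusted p = 9.96e-06). Col18a1, a basement membrane collagen, had 4.58, 2.28 and 1.73 FPKM at 48 h, against 0.27, 0.515 and 0.519 FPKM at 1.5 h, a log2 difference of 1.36 ± 0.22 (adjusted p = 0.00203). Every 48 h library of both genes exceeded every 1.5 h library. Matrix proteases and inhibitors rose in 13 of 17 tested members with 0 falls, or 7 with 1.5 h replicate 2 as the only 1.5 h library. Mmp19, a metalloprotease, had 1.51, 1.64 and 1.08 FPKM at 48 h, against 0.0466, 0.208 and 0.142 FPKM at 1.5 h, a log2 difference of 1.09 ± 0.13 (adjusted p = 0.000267). Fibroblast and meningeal genes rose in 6 of 9 tested members, or 3 with 1.5 h replicate 2 as the only 1.5 h library, with a summed FPKM of 56, 33.8 and 39.2 at 48 h, against 13.9, 26.9 and 20.1 at 1.5 h. The highest sum was again in 48 h replicate 1. TGF-beta signalling genes rose in 7 of 18 tested members with 0 falls, and in 12 without 1.5 h replicate 2. Tgfb1, the ligand itself, had 6.67, 5.87 and 7.46 FPKM at 48 h, against 1.24, 1.07 and 1.13 FPKM at 1.5 h, a log2 difference of 1.83 ± 0.12 (adjusted p = 6.02e-06). Tgfbi, its induced matrix protein, had 10.2, 6.04 and 4.43 FPKM at 48 h, against 0.262, 0.146 and 0.227 FPKM at 1.5 h, a log2 difference of 2.64 ± 0.22 (adjusted p = 3.18e-05).

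Of 16 tested axon regeneration genes, which injured neurons switch on, 9 rose and 2 fell, with a median log2 difference of 0.74, and the calls in either direction numbered 7 in place of 11 without 48 h replicate 4 or without 1.5 h replicate 3. Gal (chromosome 19, 3409919 to 3414472), the neuropeptide galanin, had 47.3, 67.9 and 79.3 FPKM at 48 h, against 1.16, 0.258 and 1.41 FPKM at 1.5 h, a log2 difference of 5.11 ± 0.33 (adjusted p = 5.31e-06). Trh, the precursor of thyrotropin-releasing hormone, had 18.8, 12.5 and 18.7 FPKM at 48 h, against 1.19, 0.442 and 0.723 FPKM at 1.5 h, a log2 difference of 3.31 ± 0.24 (adjusted p = 9.78e-06). Every alternative fit called both rises, and the 1.5 h libraries were near the control means of 0.91 ± 0.82 FPKM and 0.798 ± 0.55 FPKM (SD, n = 3). Neuropeptide precursors as a list were mixed, with 5 of 19 tested members up and 3 down, and their 8 calls numbered 4 without 48 h replicate 1 and 5 without 1.5 h replicate 1. Tac1, the precursor of substance P, had 5.2, 3.31 and 4.5 FPKM at 48 h, against 12.8, 11.6 and 8.79 FPKM at 1.5 h, a log2 difference of -1.18 ± 0.25 (adjusted p = 0.00895).

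Lamp5, Itpka and Gabrd fell at 48 h to levels below those of controls. Lamp5, a membrane protein of cortical neurons, had 16, 15.5 and 15.5 FPKM at 48 h, against 132, 101 and 88.5 FPKM at 1.5 h, a log2 difference of -2.68 ± 0.18 (adjusted p = 7.29e-06), with 56.3 ± 10.7 FPKM in controls (SD, n = 3). Itpka, an inositol phosphate kinase of dendritic spines, had 14.4, 44.3 and 35.8 FPKM at 48 h, against 281, 98.2 and 187 FPKM at 1.5 h, a log2 difference of -2.56 ± 0.43 (adjusted p = 0.00261), with 91 ± 21.7 FPKM in controls (SD, n = 3). Gabrd, the delta subunit of extrasynaptic GABA-A receptors, had 7.33, 10.5 and 8.59 FPKM at 48 h, against 57.4, 38.6 and 36.6 FPKM at 1.5 h, a log2 difference of -2.19 ± 0.19 (adjusted p = 3.35e-05), with 28.5 ± 4.29 FPKM in controls (SD, n = 3). All 3 were called in every alternative fit, and in each the control mean lay between the 2 times. Stx1a, a SNARE protein of synaptic vesicle release, had 29, 47.2 and 47 FPKM at 48 h, against 151, 138 and 139.8 FPKM at 1.5 h, a log2 difference of -1.81 ± 0.23 (adjusted p = 0.000429). Calb1, the calcium buffer calbindin and a member of the cerebellum and hindbrain list, had 9.72, 9.02 and 10.3 FPKM at 48 h, against 39.6, 26.8 and 27.6 FPKM at 1.5 h, a log2 difference of -1.58 ± 0.23 (adjusted p = 0.00114). Every 48 h library of both genes lay below every 1.5 h library. Among other large falls, Tcap, known as the titin cap of muscle, had 0.451, 0.634 and 0.393 FPKM at 48 h, against 13.1, 7.36 and 8.44 FPKM at 1.5 h, a log2 difference of -2.80 ± 0.26 (adjusted p = 4.71e-05). Cited4, a transcriptional co-activator, had 1.97, 1.57 and 1.36 FPKM at 48 h, against 16.7, 9.17 and 16.7 FPKM at 1.5 h, a log2 difference of -2.49 ± 0.22 (adjusted p = 3.48e-05). Neither gene's groups overlapped, which the rule that named them required.

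Like most of all tested genes, most synaptic and neuronal genes did not pass the test in the full comparison. Their counts stand against 10.1% of all genes that rose and 10.3% that fell. Of 19 tested neuron markers 1 rose and 1 fell, and of 22 tested synaptic vesicle genes 1 rose and 3 fell. Of 21 tested glutamate receptor genes 1 rose and 2 fell, and of 20 tested GABA system genes 1 rose and 5 fell. Sv2c, the synaptic vesicle gene that rose, had 18, 11.4 and 10.5 FPKM at 48 h, against 0.883, 5.3 and 1.26 FPKM at 1.5 h. Its log2 difference was 2.22 ± 0.40 (adjusted p = 0.00351). The rises in the other lists were Gad2 (1.27 ± 0.32), Nefh (1.03 ± 0.29) and Grm8 (0.48 ± 0.15). Their calls were kept in 12 of 20, 10 of 20 and 8 of 19 alternatives. The 6 GABA calls numbered 2 without 48 h replicate 1 or 1.5 h replicate 3, and 3 without 1.5 h replicate 1. With 1.5 h replicate 2 as the only 1.5 h library, 4 neuron markers, 9 synaptic vesicle genes, 10 glutamate receptor genes and 7 GABA genes fell. With the length correction 3 neuron markers and 7 glutamate receptor genes fell. The medians of neuron markers and synaptic vesicle genes were -0.17 and -0.18, and both turned positive under quantile normalization (0.35 and 0.24) and under scaling to own read totals (0.14 and 0.13). Relative to 1.5 h replicate 2 alone both medians stayed negative, at -0.33 and -0.45. The scaling thus turned the direction of these lists, and the choice of 1.5 h libraries moved their number of falls. Snap25, another SNARE protein, had 156, 191 and 218 FPKM at 48 h, against 235, 339 and 209.8 FPKM at 1.5 h, with a log2 difference of -0.45 ± 0.21 (adjusted p = 0.151) that did not pass.

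Region markers differed between libraries of the same group, and the labels do not state how the tissue was cut. The summed FPKM of 12 striatum markers was 351, 151 and 191 at 48 h, against 266, 561 and 177 at 1.5 h, with 1.5 h replicate 2 far above the rest. Relative to that library alone the list had a median log2 difference of -1.51, against -0.51 with all libraries, and 6 of its 12 tested members fell, against 2 with all libraries. The choroid plexus sum was 1080, 49.5 and 150.2 at 48 h, against 46, 39.3 and 481 at 1.5 h, set by 48 h replicate 1 and 1.5 h replicate 3. Ttr, the transthyretin of choroid plexus, had 978, 31 and 127 FPKM at 48 h, against 5.54, 1.96 and 439 FPKM at 1.5 h, and its log2 difference of 2.96 ± 1.62 (adjusted p = 0.211) did not pass the test. The cortex and hippocampus sum was 325, 620.4 and 507 at 48 h, against 820.5, 623 and 669 at 1.5 h, with 48 h replicate 1 the lowest. Of its 14 tested members 0 rose and 1 fell, or 2 rose and 4 fell with 1.5 h replicate 2 as the only 1.5 h library. The part of dissection in the neuronal falls was not tested. Neuron and oligodendrocyte markers were abundant in every library. The neuron marker sum was 2022, 2470 and 2531 at 48 h, against 3368, 2697 and 2898 at 1.5 h. The oligodendrocyte sum was 2143, 901 and 935 at 48 h, against 2022, 1206 and 1380 at 1.5 h. The hindbrain genes Hoxa5 and Hoxb5 were at 0 in all 6 libraries.

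Of 20 tested myelin genes 1 rose and 0 fell, against 10.1% and 10.3% of all genes. Mbp, the myelin basic protein, had 431, 178 and 187 FPKM at 48 h, against 700.0, 339 and 437 FPKM at 1.5 h, with a log2 difference of -0.95 ± 0.35 (adjusted p = 0.0765). Trf, the iron carrier transferrin that oligodendrocytes make, was the member that rose, at 23, 9.89 and 11.6 FPKM at 48 h, against 5.01, 2.75 and 1.94 FPKM at 1.5 h, a log2 difference of 1.88 ± 0.32 (adjusted p = 0.00255). Oligodendrocyte precursor genes rose in 2 of 14 tested members, near the share of 10.1% of all genes.

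Targets of the oxidant response rose more often than they fell. Of 19 tested targets of NRF2, a transcription factor of the oxidant response, 9 rose and 1 fell, with a median log2 difference of 0.53. Gsr, glutathione reductase, had 16.1, 14.4 and 14.4 FPKM at 48 h, against 7.71, 7.76 and 8.49 FPKM at 1.5 h, a log2 difference of 0.83 ± 0.10 (adjusted p = 0.00029), a rise called in every alternative fit. Me1, malic enzyme, had 20.7, 16.1 and 19.5 FPKM at 48 h, against 11.7, 11.5 and 10.1 FPKM at 1.5 h, a log2 difference of 0.70 ± 0.12 (adjusted p = 0.00329). Gstm1, a glutathione transferase, was the member that fell, with 58.1, 41.9 and 62.6 FPKM at 48 h, against 152, 69.1 and 103 FPKM at 1.5 h, a log2 difference of -0.93 ± 0.27 (adjusted p = 0.0355), and 1.5 h replicate 2 lay close to the 48 h libraries. Hmox1, heme oxygenase, which breaks down heme, had 99.1, 19.8 and 14.4 FPKM at 48 h, against 21.2, 8.81 and 6.82 FPKM at 1.5 h. Its log2 difference of 1.41 ± 0.59 (adjusted p = 0.108) did not pass the test, 48 h replicate 1 stood far above the others, and the groups overlapped. All 6 libraries exceeded the control mean of 2.48 ± 0.391 FPKM (SD, n = 3).

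Of 15 tested genes of heme breakdown and iron handling 5 rose and 0 fell, and 3 rose when 48 h replicate 1, 1.5 h replicate 1 or 1.5 h replicate 3 was left out, but 9 without 1.5 h replicate 2. Of 15 tested heme synthesis genes 2 rose and 1 fell, and 3 fell with the length correction. Tspo, the mitochondrial porphyrin-binding protein that rises in activated microglia, had 24.9, 22 and 19.6 FPKM at 48 h, against 5.56, 2.39 and 4.08 FPKM at 1.5 h, a log2 difference of 2.25 ± 0.21 (adjusted p = 5.63e-05). Alas1, the rate-limiting enzyme of heme synthesis, had 9.65, 10.1 and 10.9 FPKM at 48 h, against 15.7, 11 and 13.6 FPKM at 1.5 h, and its log2 difference of -0.35 ± 0.13 (adjusted p = 0.0723) did not pass the test. Slc25a38, the mitochondrial glycine carrier of heme synthesis, fell to 8.61, 8.27 and 7.93 FPKM at 48 h, against 18.4, 9.3 and 14.8 FPKM at 1.5 h, a log2 difference of -0.66 ± 0.19 (adjusted p = 0.0291), a call kept in 9 of 20 alternatives, with 1.5 h replicate 2 close to the 48 h libraries.

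Cholesterol synthesis and transport genes rose in 9 of 21 tested members and fell in 1, which was Apoe. Without 48 h replicate 4 the calls in either direction numbered 6 in place of 10. Abca1, the pump that loads lipid onto apolipoproteins, had 10.2, 5.01 and 7.91 FPKM at 48 h, against 1.41, 3.18 and 1.81 FPKM at 1.5 h, a log2 difference of 1.47 ± 0.23 (adjusted p = 0.00172). Sqle, squalene epoxidase, had 18.3, 18.7 and 19.3 FPKM at 48 h, against 11.6, 9.36 and 12.4 FPKM at 1.5 h, a log2 difference of 0.71 ± 0.11 (adjusted p = 0.00175). Of 22 tested cell death genes 8 rose and 2 fell. Tnfrsf1a, the TNF receptor with a death domain, had 22.9, 13.2 and 12.8 FPKM at 48 h, against 3.56, 1.75 and 2.62 FPKM at 1.5 h, a log2 difference of 2.23 ± 0.22 (adjusted p = 8.46e-05). Casp8, the initiator caspase below it, had 2.93, 1.83 and 1.9 FPKM at 48 h, against 0.654, 0.593 and 0.568 FPKM at 1.5 h, a log2 difference of 0.99 ± 0.14 (adjusted p = 0.00112). In both genes the 48 h libraries all exceeded the 1.5 h libraries. The 2 falls were Casp9 and Hrk. Casp9, the initiator caspase of the mitochondrial pathway, had 5.09, 6.19 and 5.62 FPKM at 48 h, against 8.6, 8.74 and 8.68 FPKM at 1.5 h, a log2 difference of -0.55 ± 0.12 (adjusted p = 0.0091), a call kept in 17 of 20 alternatives. Hrk, a BH3-only protein that promotes apoptosis, had 2.59, 3.31 and 3.45 FPKM at 48 h, against 5.63, 4.88 and 6.53 FPKM at 1.5 h, a log2 difference of -0.70 ± 0.15 (adjusted p = 0.00907), kept in 16 of 20. In both genes every 48 h library lay below every 1.5 h library, and the control means of 8.47 ± 1.24 FPKM and 6.6 ± 1.06 FPKM (SD, n = 3) lay nearer the 1.5 h means. Of 23 tested hypoxia and glycolysis genes 2 rose and 1 fell.

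The medians of the ribosomal, oxidative phosphorylation, mitochondrial and proteasome lists turned from negative to positive when 1.5 h replicate 2 was the only 1.5 h library. Of 27 tested ribosomal protein genes 0 rose and 0 fell, with a median log2 difference of -0.57 that was 0.53 against 1.5 h replicate 2 alone, when 10 rose. Of 27 tested nuclear oxidative phosphorylation genes 5 fell, with a median of -0.96 that was 0.08 against 1.5 h replicate 2 alone, when 0 fell. Those calls numbered 25 without 1.5 h replicate 2 and 0 without any other single library but 48 h replicate 3. Cox8a, a subunit of cytochrome oxidase, had 624, 1088 and 667 FPKM at 48 h, against 5662, 1081 and 2845 FPKM at 1.5 h, a log2 difference of -1.75 ± 0.50 (adjusted p = 0.0305). The mitochondrial 16S rRNA gene mt-Rnr2 had 1417, 3250 and 1967 FPKM at 48 h, against 28090, 3379 and 7833 FPKM at 1.5 h, a log2 difference of -2.12 ± 0.65 (adjusted p = 0.0423). In both genes 1.5 h replicate 2 lay at or near the level of the 48 h libraries, and 1.5 h replicates 1 and 3 lay far above them. The short nuclear RNA Rn7sk, of 331 bases and chosen after its values were seen, had 8.39, 8.91 and 14 FPKM at 48 h, against 530.0, 77.5 and 128 FPKM at 1.5 h, a log2 difference of -3.97 ± 0.60 (adjusted p = 0.0013). Of 15 tested mitochondrial transcripts 2 fell, mt-Rnr2 and mt-Atp8. The short mt-Atp8, of 204 bases, had 4.19, 1.87 and 3.39 FPKM at 48 h, against 18.6, 10.8 and 41 FPKM at 1.5 h. Its log2 difference was -2.40 ± 0.40 (adjusted p = 0.00246), a fall called in every alternative fit. Here 1.5 h replicate 2 also lay above every 48 h library. Of 26 tested proteasome genes 1 rose and 0 fell, or 5 and 0 with 1.5 h replicate 2 as the only 1.5 h library. The length correction left all 4 medians negative, at -0.33 for the ribosomal, -0.73 for the oxidative phosphorylation, -0.41 for the mitochondrial and -0.13 for the proteasome list. Under it 8 oxidative phosphorylation genes and 3 mitochondrial transcripts fell.

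**Figure D5:**
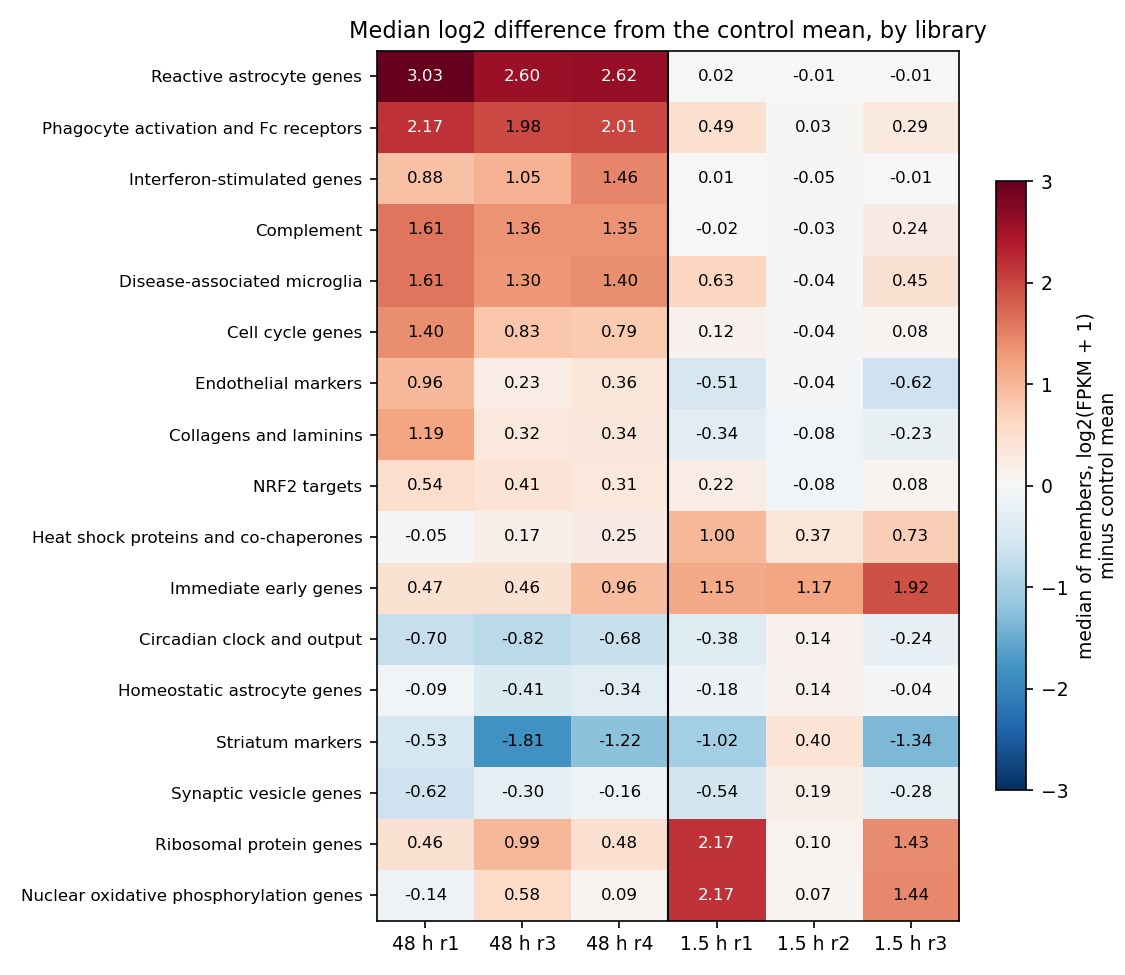
Median over list members of log2(FPKM + 1) minus the control mean, in each of the 6 libraries, with 48 h left of 1.5 h; red is above and blue below control. Reactive astrocyte genes stand at 3.03, 2.60 and 2.62 at 48 h, against 0.02, -0.01 and -0.01 at 1.5 h, whereas ribosomal protein genes stand at 0.46, 0.99 and 0.48 at 48 h, against 2.17, 0.10 and 1.43 at 1.5 h.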

How the data were processed

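Brain RNA was isolated by Trizol followed by a kit for total RNA, per the labels' protocols, and sequenced. The deposited table gives 1 FPKM value per gene and library, made by the authors, with gene length and position per the file headers. Bowtie 0.12.2 and mm8 are named per the submitters' processing notes. Of 54495 gene IDs shared with GENCODE M21, 98.33% matched its start and end, and positions are therefore written as GRCm38. Counting tool, strand use and RNA selection are not given in the sources used here, so overlapping and antisense genes are uncertain. Multiplied by gene length, FPKM values were whole multiples of 1 step per library (100% of values, within 0.05), which gave the recovered reads. The scaling total behind the FPKM equalled a median-of-ratios size factor times a common total (ratio 0.998), so no further scaling was applied.

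Genes above 0.5 FPKM in 3 of the 6 libraries were fitted as log2(FPKM + 1) in limma 3.58.1 (R 4.3.3) with a mean-variance trend, on all 12 libraries in 4 groups. The contrast was 48 h minus 1.5 h, with Benjamini-Hochberg adjustment over 15907 genes, and fold changes of low genes are understated by the pseudocount. The residual degrees of freedom were 8. Named genes were the 10 largest rises and falls among called genes of at least 500 bases, with at least 1 FPKM on average in the higher group and no overlap between groups, 5 of each that were also called with the length correction, up to 2 per direction from each of 55 gene lists by smallest p, and 20 fixed genes. The comparison, the lists and the tests were chosen with earlier results of these data known. A 12 h library whose column number matched no title of its group entered the fit without a number. List members overlap in part between lists. Promoter sequence came from RefSeq, and Python 3.11.15 was used for motif searches and figures.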

Additional observations from a re-analysis of the deposited data

How the results depend on the processing

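No named gene was called in the opposite direction by an alternative fit. Other genes were not checked in this way, and the medians of several lists changed sign, as given above. Against 1605 rises and 1644 falls, fits with only the 2 groups compared gave 677 calls (453 rises and 224 falls), array weights gave 9931 (4566 and 5365), and the length correction with only those groups, chosen after seeing the data, gave 1129 (692 and 437). A minimum fold of 2 left 892 (480 and 412). A filter above 1 FPKM in all 6 libraries gave 819 rises. Scaling to own read totals gave 2933 rises and 717 falls, since it moved all genes up. Leaving out 1 library gave 1945 to 7847 calls, 1070 to 3428 rises and 875 to 4419 falls. The causes of the other differences were not tested. Among named genes 44 lost their call with only the 2 groups in the fit, 25 without both 1.5 h replicates 1 and 3, 17 under scaling to own read totals, and 0 to 19 without any single library. With the replicate number as a block the calls numbered 1046 (658 and 388). Whether the numbers pair the libraries could not be decided. Deviations from the group means correlated at -0.274 for number 1 and 0.167 for number 3 across genes. Libraries of unlike number spanned a wider range, from -0.438 to 0.431. An unadjusted p under 0.05 was reached by 5718 genes. With 15348579 to 17444654 recovered reads per library, levels near 0.5 FPKM rest on few reads.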
